A study of Mus musculus with 18 samples.

Results

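The proteasome is the protease that degrades proteins tagged with ubiquitin. Its core is a barrel of alpha-ring and beta-ring subunits, with the cutting sites inside on 3 of the beta subunits, and its cap recognises the ubiquitin chain, removes it and unfolds the protein with a ring of ATPases. In T cells the proteasome also destroys the inhibitor of NF-kappaB and makes peptides for class I presentation, and interferon exchanges the 3 cutting subunits for Psmb8, Psmb9 and Psmb10. The genes described here were the rows whose symbol starts with Psma to Psmg and a number, without Psmb8, Psmb9 and Psmb10. The table held 47 such rows, of which 45 had a mean log2 value of at least 3 among the 13190 tested genes of 15402 in the table. The 2 others, the testis subunit Psma8 and the thymus subunit Psmb11, had means of 0.57 and 2.51, and the lowest mean among the 45 was 7.32, of Psmc3ip. By role, 14 were core subunits, 17 cap subunits, 7 assembly chaperones and 5 activators or an inhibitor, which makes 43 genes of the proteasome. The remaining 2 matched by name only: Psmc3ip encodes a recombination factor, and Psme2b is a near-identical copy of the activator gene Psme2, so that reads of the pair may have been split between them.

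RNA-seq was done on 18 libraries of lymph node T cells from female Foxp3-Tocky mice (C57/BL6 carrying Foxp3Timer and Foxp3-IRES-GFP), 5 days after 3% oxazolone was put on the abdominal skin. All groups carried both reporters and had been sensitised, and no unsensitised group is in the comparison. Timer, driven by Foxp3 regulatory sequence, is a fluorescent protein that is blue when new and turns red, so that blue marks recent Foxp3 transcription. The 6 sorted populations, with 3 libraries each, were Tnaive (CD44-low Timer-negative), Teff (CD44-high Timer-negative), Pers1 (intermediate blue, low red), Pers2 (high blue, high red), PAt (low blue, high red) and Arrested (no blue, intermediate red). Pers1 and Pers2 are called the persistent populations below. Each library came from a pool of 3 mice. Mice entered the sensitisation protocol at 5 to 10 weeks of age, and the age of each pool is not given in the sources used here. Values are log2 normalised counts as deposited, differences between populations are on the same log2 scale, and a gene was called when the adjusted p from limma was under 0.05.

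The sort was visible in the libraries. Foxp3 ran from 14.36 to 14.85 in the 12 Timer-positive libraries, from 11.27 to 11.38 in Tnaive and from 10.38 to 10.64 in Teff. Cd44 was between 9.47 and 9.72 in Tnaive and between 13.04 and 13.05 in Teff. Cd3e and Cd4, defining genes of CD4 T cells, had population means between 13.66 and 13.87 and between 14.49 and 15.67. The Teff libraries also held other cells' genes: 6 of 6 dendritic cell markers were higher than in Tnaive, the plasmacytoid gene Siglech had a mean of 10.62 against 3.58 to 4.30 elsewhere, 5 of 5 B cell markers, 3 of 4 tested macrophage or monocyte markers, 2 of 3 NK cell markers and 2 of 2 CD8 markers were higher too, and Cd14 stayed under 0.56 on average in every population. In bulk RNA, fewer cells of a type and less RNA per cell cannot be told apart.

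Most proteasome genes were highest in Pers1. Of the 45 genes, 39 had their highest mean in Pers1 and 1 in Pers2, together 88.9%, where 35.9% of all tested genes peaked in a persistent population. The lowest mean fell in Tnaive for 21 genes, in Arrested for 12, in PAt for 6 and in Teff for 4. The heatmap of all 18 libraries shows most core and cap rows at their reddest in the persistent populations.

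**Figure D1:**
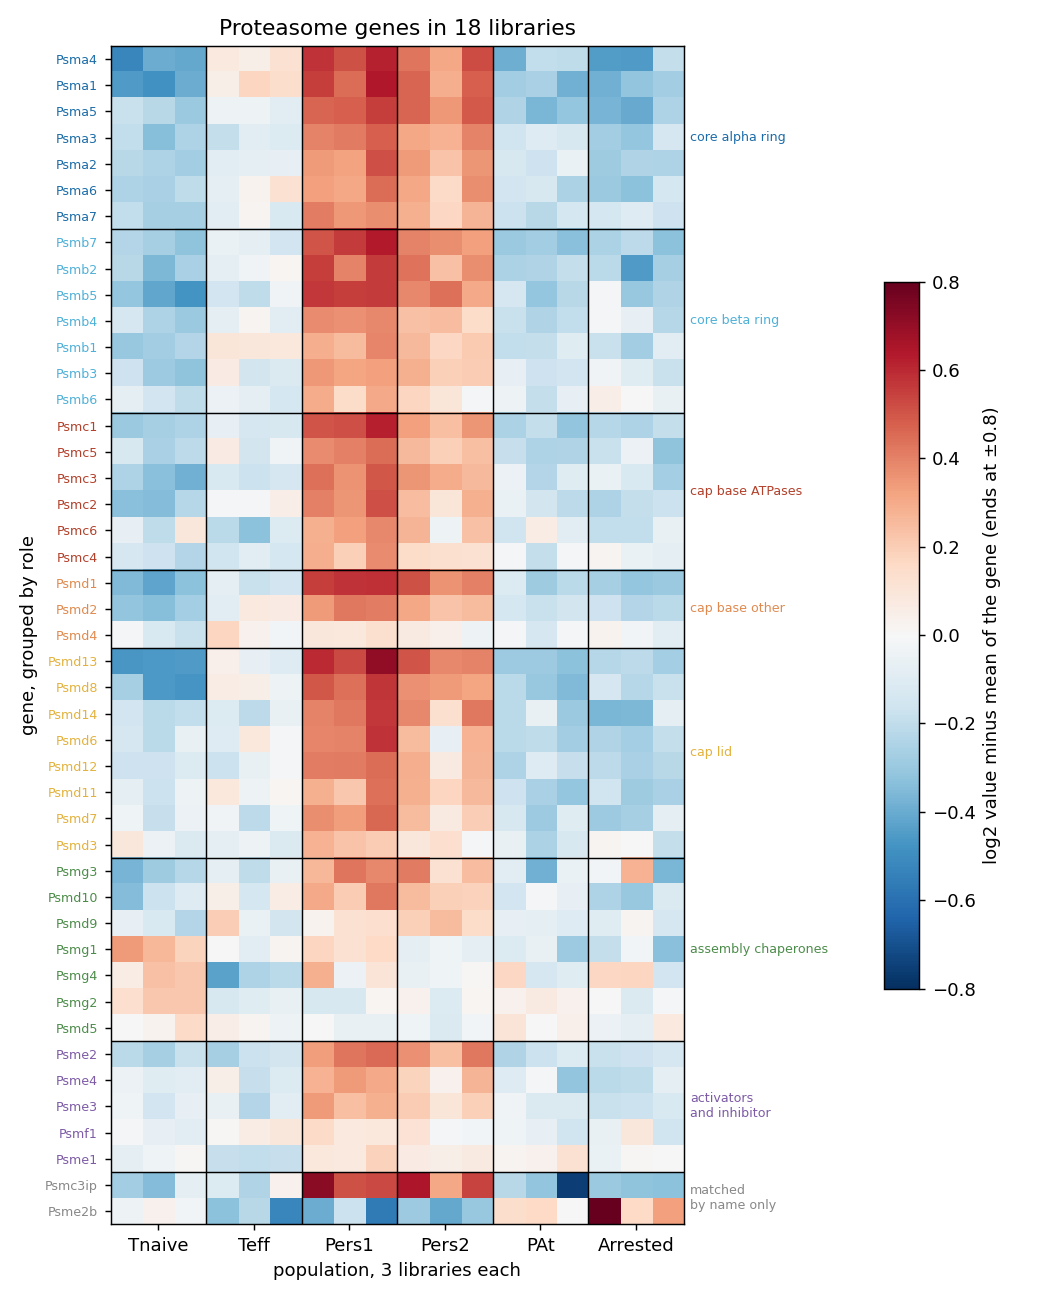
Heatmap of 45 genes (rows, grouped by role) in 18 libraries (columns, 3 per population), coloured by the log2 value minus the mean of the gene, with the colour scale ending at ±0.8. Core and cap rows are mostly red in the 6 persistent libraries and mostly blue in Tnaive, PAt and Arrested. The assembly chaperones are mixed and Psme2b is dark red in 1 Arrested library.

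Core and cap genes rose together in the persistent populations. Against PAt and Arrested, 40 of 45 genes were higher and 1 was lower, where 35.9% of all tested genes were higher and 35.1% lower. Among the 5927 tested genes with a mean of at least 10, a background closer to the level of subunit genes that was chosen after seeing the data, 42.5% were higher. All 14 core genes rose (median 0.55, from 0.22 to 0.81), as did all 17 cap genes (median 0.52, from 0.10 to 0.79), and the median over the 45 was 0.49 against -0.01 over all tested genes. With the added requirement of a log2 fold change over 1, 0 of the 45 were called, where 4.74% of all genes were called higher and 2.77% lower. The study used that threshold between single populations, while here it was applied to the mean of 2 populations on each side. In 33 genes all 6 persistent libraries lay above all 6 PAt and Arrested libraries and in 1 all lay below, against 24% and 21.8% of all tested genes. The persistent libraries also differed in division genes: 5 of 5 (Mki67, Top2a, Ccnb1, Cdk1, Pcna) were higher, with a median of 2.88, and their summed level was 15.62 to 15.88 in persistent libraries against 13.31 to 13.55 in PAt and Arrested. Of B cell markers, 5 of 5 were lower, with summed levels of 10.47 to 10.74 against 11.22 to 11.83, and 2 of 2 CD8 markers were lower too (9.65 to 10.18 against 10.41 to 10.70). Of the other lists, 1 of 4 tested macrophage or monocyte markers was higher, 1 of 6 dendritic and 1 of 3 NK markers were higher and 1 of each lower, and 3 of 4 CD4 T cell markers were higher and 1, Lck, lower. The part of these differences in the proteasome result was not tested.

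**Figure D2:**
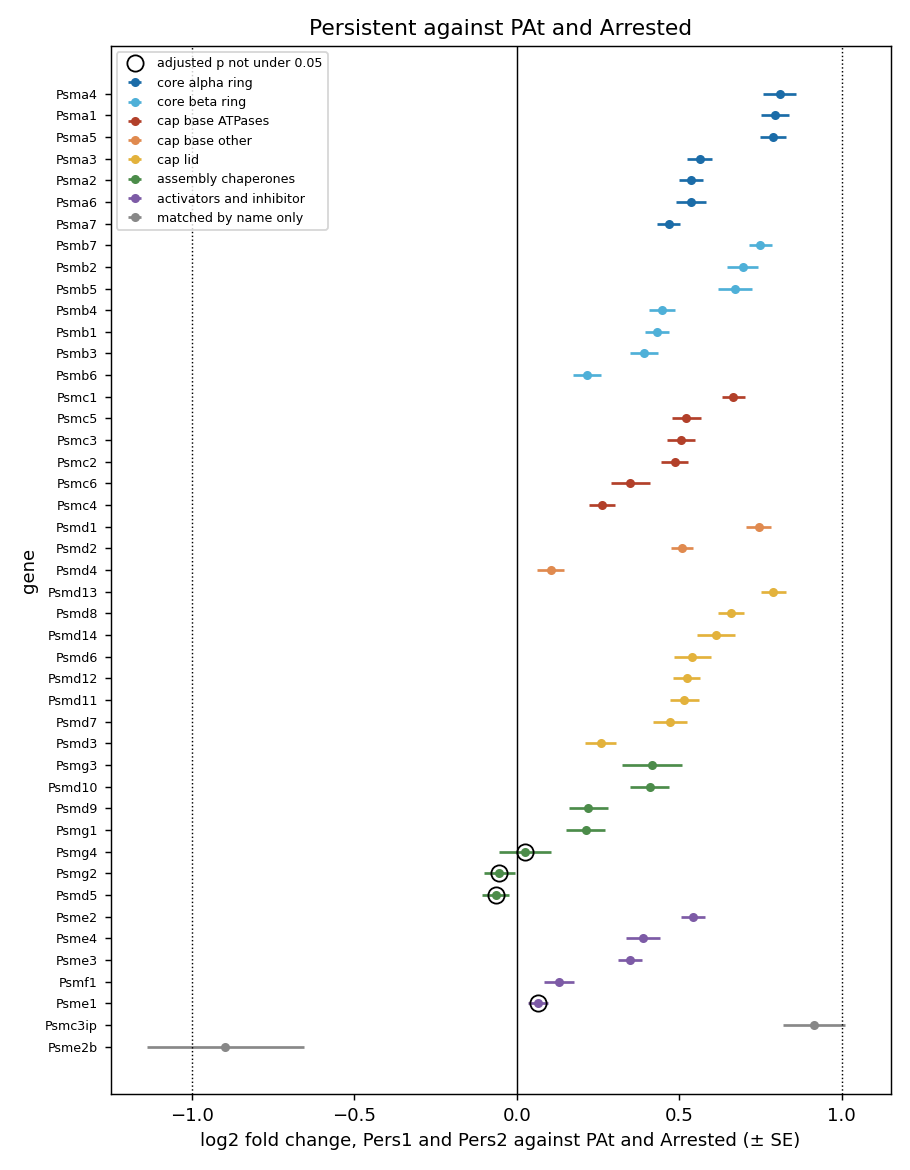
Log2 fold change of each gene (rows, coloured by role) between the mean of Pers1 and Pers2 and the mean of PAt and Arrested, as points with bars of ± 1 SE from limma, 6 libraries a side. Circles mark genes that were not called and dotted lines mark a log2 fold change of 1 either way. All core and cap points lie between 0.10 and 0.81.

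The alpha ring forms the outer gate of the core, and its 7 genes rose by 0.47 to 0.81. Psma4 had the largest core difference. Among Timer-positive libraries it stood at 12.50, 12.43 and 12.54 for Pers1, 12.35, 12.23 and 12.45 for Pers2, 11.53, 11.72 and 11.72 for PAt and 11.47, 11.47 and 11.73 for Arrested. Tnaive and Teff libraries gave 11.40, 11.52 and 11.51 for Tnaive and 11.997, 11.97 and 12.04 for Teff. All 6 persistent libraries lay above the other 12, Teff lay between, and the difference from PAt and Arrested was 0.81 ± 0.05 (SE, adjusted p = 8.06e-12). Psma7 had the smallest alpha-ring difference, and still did not overlap. The Timer-positive libraries gave 12.12, 12.06 and 12.09 for Pers1, 12.003, 11.88 and 11.99 for Pers2, 11.54, 11.49 and 11.57 for PAt and 11.58, 11.61 and 11.55 for Arrested. Outside the Timer-positive cells the values were 11.52, 11.45 and 11.45 for Tnaive and 11.64, 11.74 and 11.60 for Teff. It was 0.47 ± 0.04 (SE) higher in the persistent populations (adjusted p = 1.64e-10). The other 5 alpha genes rose by 0.79 (Psma1), 0.79 (Psma5), 0.56 (Psma3), 0.54 (Psma2) and 0.54 (Psma6).

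The beta ring holds the cutting sites, and its genes spread more widely. Psmb7 encodes the subunit that cuts after basic residues. In Timer-positive cells the levels were 11.92, 11.97 and 12.05 for Pers1, 11.81, 11.79 and 11.74 for Pers2, 11.12, 11.14 and 11.08 for PAt and 11.16, 11.21 and 11.09 for Arrested. The Timer-negative libraries held 11.18, 11.15 and 11.10 for Tnaive and 11.36, 11.34 and 11.26 for Teff. PAt, Arrested and Tnaive lay at one level, Teff just above them and the persistent libraries well above all, with a difference of 0.75 ± 0.04 (SE, adjusted p = 1.1e-13). Psmb6, the subunit that cuts after acidic residues, moved least. Its values were 11.56, 11.41 and 11.57 for Pers1, 11.44, 11.36 and 11.25 for Pers2, 11.22, 11.07 and 11.20 for PAt and 11.32, 11.26 and 11.21 for Arrested. In Timer-negative cells it was at 11.19, 11.11 and 11.06 for Tnaive and 11.22, 11.19 and 11.12 for Teff. One Pers2 library at 11.25 lay among the PAt and Arrested values, and the difference was 0.22 ± 0.04 (SE, adjusted p = 0.000174). Psmb2 and Psmb5 rose by 0.70 and 0.67, and Psmb4, Psmb1 and Psmb3 by 0.45, 0.43 and 0.39. The exons of Psmb7 overlap those of Nek6 on the opposite strand by 405 bp, and whether the counting used strand is not given in the sources used here.

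Of the interferon-induced counterparts of the cutting subunits, 1 rose, 1 fell and 1 was not called. Psmb8, which replaces Psmb5, gave 13.40, 13.44 and 13.48 for Pers1, 13.40, 13.50 and 13.42 for Pers2, 13.40, 13.32 and 13.50 for PAt and 13.43, 13.48 and 13.36 for Arrested, and 13.13, 13.15 and 13.16 for Tnaive and 13.21, 13.25 and 13.26 for Teff. Its persistent and PAt and Arrested libraries overlapped, with a difference of 0.02 ± 0.03 (SE, adjusted p = 0.535). Psmb9, which replaces Psmb6, gave 12.15, 12.20 and 12.20 for Pers1, 12.19, 12.32 and 12.22 for Pers2, 11.94, 11.92 and 12.05 for PAt and 12.14, 12.04 and 12.02 for Arrested, and 12.08, 12.12 and 12.03 for Tnaive and 12.06, 12.07 and 12.13 for Teff. It rose by 0.19 (adjusted p = 5.46e-05). Psmb10, which replaces Psmb7, gave 11.80, 11.81 and 11.88 for Pers1, 11.68, 11.72 and 11.56 for Pers2, 11.82, 11.67 and 12.03 for PAt and 11.96, 11.96 and 11.83 for Arrested, and 11.80, 11.71 and 11.69 for Tnaive and 11.55, 11.55 and 11.53 for Teff. It was lower by 0.14, with a value of -0.14 ± 0.05 (SE, adjusted p = 0.017) and overlapping libraries. The log ratio of each constitutive subunit to its counterpart, within a library, shifted without overlap in 2 of the 3 pairs. Psmb7 over Psmb10 lay between 0.066 and 0.187 in the persistent libraries and between -0.951 and -0.532 in PAt and Arrested, a shift of 0.89. Psmb5 over Psmb8 shifted by 0.65, again with all 6 persistent libraries above the others. Psmb6 over Psmb9 moved by 0.02, less than its SD of 0.16 over the persistent libraries, and only 2 of 6 persistent libraries lay above all PAt and Arrested libraries. These ratios were chosen after the values were seen and carry no test, and only their change between populations can be read, since the genes differ in length.

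**Figure D3:**
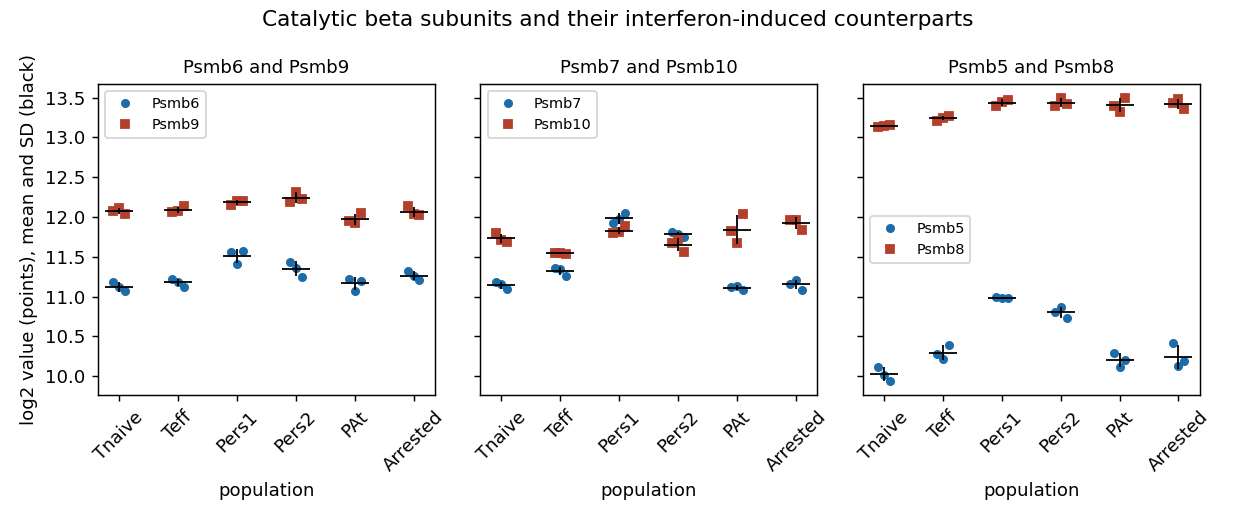
Log2 values of the 3 cutting subunits (circles) and of their interferon-induced counterparts (squares) in each library of the 6 populations, with mean and SD of 3 libraries in black. Circles rise in Pers1 and Pers2 for Psmb7 and Psmb5. Psmb8 squares have means between 13.41 and 13.44 in the Timer-positive populations, 13.14 in Tnaive and 13.24 in Teff. Psmb10 squares run from a mean of 11.54 in Teff to 11.92 in Arrested. The height of one gene against another is not corrected for length.

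The base of the cap carries the ring of ATPases that pulls substrates into the core. Psmc1 moved most among the 6 ATPase genes. Among Timer-positive libraries it stood at 11.99, 11.99 and 12.10 for Pers1, 11.81, 11.72 and 11.83 for Pers2, 11.23, 11.29 and 11.17 for PAt and 11.25, 11.23 and 11.29 for Arrested. Tnaive and Teff libraries gave 11.18, 11.22 and 11.23 for Tnaive and 11.41, 11.35 and 11.35 for Teff. The Pers1 libraries lay above the Pers2 libraries and both above the other 12, with a difference from PAt and Arrested of 0.67 ± 0.04 (SE, adjusted p = 6.15e-13). Psmc4 moved least of the ATPases. The Timer-positive libraries gave 11.90, 11.80 and 11.99 for Pers1, 11.75, 11.74 and 11.73 for Pers2, 11.60, 11.42 and 11.60 for PAt and 11.63, 11.55 and 11.53 for Arrested. Outside the Timer-positive cells the values were 11.48, 11.44 and 11.37 for Tnaive and 11.45, 11.52 and 11.47 for Teff. No persistent library fell under 11.73 and no other exceeded 11.63, and the difference was 0.26 ± 0.04 (SE, adjusted p = 6.37e-06). Psmc5, Psmc3, Psmc2 and Psmc6 rose by 0.52, 0.50, 0.49 and 0.35.

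The base also has a pair of large scaffolds and a ubiquitin receptor. Psmd1, a scaffold, gave 12.30, 12.32 and 12.33 for Pers1, 12.26, 12.10 and 12.15 for Pers2, 11.64, 11.46 and 11.53 for PAt and 11.48, 11.44 and 11.45 for Arrested. The Timer-negative libraries held 11.39, 11.32 and 11.42 for Tnaive and 11.67, 11.57 and 11.59 for Teff. Persistent libraries were all at 12.10 or above and all others at 11.67 or below, a difference of 0.74 ± 0.04 from PAt and Arrested (SE, adjusted p = 2.42e-13). Psmd2, the scaffold that docks shuttle proteins, gave 13.20, 13.29 and 13.27 for Pers1, 13.17, 13.09 and 13.12 for Pers2, 12.73, 12.69 and 12.71 for PAt and 12.70, 12.63 and 12.65 for Arrested. In Timer-negative cells it was at 12.55, 12.53 and 12.59 for Tnaive and 12.77, 12.94 and 12.93 for Teff. It rose by 0.51 ± 0.03 (SE, adjusted p = 2.17e-11), with Teff between the persistent libraries and the rest. Psmd4, a receptor for ubiquitin chains, moved least of the cap genes. In Timer-positive cells the levels were 12.05, 12.04 and 12.09 for Pers1, 12.03, 11.998 and 11.92 for Pers2, 11.95, 11.82 and 11.94 for PAt and 11.99, 11.94 and 11.87 for Arrested. Tnaive and Teff libraries gave 11.94, 11.83 and 11.78 for Tnaive and 12.13, 11.99 and 11.94 for Teff. The libraries overlapped and the difference was 0.10 ± 0.04 (SE, adjusted p = 0.0283). This call was lost when libraries were centred on their median (0.04, adjusted p = 0.405), under quantile normalisation (0.06, adjusted p = 0.166), and without Pers1 replicate 3 (0.10), Pers2 replicate 1 (0.09), PAt replicate 2 (0.08) or Arrested replicate 3 (0.09).

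The lid removes the ubiquitin chain. Psmd13, a structural lid subunit, moved most. Its values were 11.86, 11.79 and 11.97 for Pers1, 11.76, 11.65 and 11.66 for Pers2, 10.97, 10.97 and 10.94 for PAt and 11.03, 11.05 and 10.99 for Arrested. Outside the Timer-positive cells the values were 10.80, 10.80 and 10.81 for Tnaive and 11.30, 11.20 and 11.15 for Teff. The 3 Tnaive libraries were lowest, PAt and Arrested next, then Teff and the persistent libraries, with a difference of 0.79 ± 0.04 (SE, adjusted p = 1.63e-13). Its exons overlap those of Sirt3 on the opposite strand by 342 bp. Psmd3, another structural subunit, moved least. Among Timer-positive libraries it stood at 12.32, 12.27 and 12.24 for Pers1, 12.13, 12.18 and 12.02 for Pers2, 11.98, 11.78 and 11.91 for PAt and 12.06, 12.04 and 11.85 for Arrested. The Timer-negative libraries held 12.13, 11.99 and 11.93 for Tnaive and 11.97, 12.002 and 11.92 for Teff. Persistent and other libraries overlapped, and the difference was 0.26 ± 0.05 (SE, adjusted p = 4.43e-05). Psmd14, the enzyme that cuts off the chain, rose by 0.61, and Psmd8, Psmd6, Psmd12, Psmd11 and Psmd7 rose by 0.66, 0.54, 0.52, 0.52 and 0.47.

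Genes of assembly chaperones, which are not part of the finished protease, were mixed: 4 of 7 rose, 3 were not called, and their median was 0.21. Psmg3, a chaperone of the alpha ring, gave 8.61, 8.77 and 8.73 for Pers1, 8.76, 8.46 and 8.59 for Pers2, 8.25, 7.96 and 8.29 for PAt and 8.32, 8.62 and 7.98 for Arrested. In Timer-negative cells it was at 7.97, 8.06 and 8.11 for Tnaive and 8.27, 8.14 and 8.28 for Teff. Arrested replicate 2, at 8.62, overlapped the persistent libraries, and the difference was 0.42 ± 0.09 (SE, adjusted p = 0.00048). Its partner Psmg4 had a difference of 0.02 ± 0.08 (SE, adjusted p = 0.796). Psmd10 rose by 0.41, Psmd9 by 0.22 and Psmg1 by 0.21, the first 2 being chaperones of the cap base and the last of the alpha ring. Psmg2, the partner of Psmg1, was at -0.05 ± 0.05 (SE, adjusted p = 0.325). Psmd5, a chaperone of the cap base, gave 10.52, 10.47 and 10.47 for Pers1, 10.49, 10.41 and 10.50 for Pers2, 10.63, 10.52 and 10.57 for PAt and 10.48, 10.45 and 10.60 for Arrested. Tnaive and Teff libraries gave 10.53, 10.55 and 10.68 for Tnaive and 10.58, 10.55 and 10.48 for Teff. All 18 values lay between 10.41 and 10.68, with a difference of -0.07 ± 0.04 (SE, adjusted p = 0.179), and it was called lower (-0.13, adjusted p = 0.0093) with libraries centred on their median and under quantile normalisation (-0.14, adjusted p = 0.00607).

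The activators bind the core in place of the cap and open it. Psme1 and Psme2 encode the alternating subunits of 1 interferon-induced ring and lie close to each other, at chr14:55578123-55581529 on the plus strand and chr14:55587441-55591113 on the minus strand (GENCODE, GRCm38). Psme2 gave 13.37, 13.47 and 13.49 for Pers1, 13.41, 13.28 and 13.46 for Pers2, 12.80, 12.87 and 12.93 for PAt and 12.86, 12.88 and 12.91 for Arrested. Outside the Timer-positive cells the values were 12.82, 12.78 and 12.86 for Tnaive and 12.77, 12.87 and 12.89 for Teff. All 6 persistent libraries lay above the other 12, and the difference was 0.54 ± 0.04 (SE, adjusted p = 3.35e-11). Psme1 gave 13.37, 13.36 and 13.47 for Pers1, 13.34, 13.33 and 13.36 for Pers2, 13.30, 13.31 and 13.41 for PAt and 13.23, 13.29 and 13.29 for Arrested. The Timer-negative libraries held 13.20, 13.25 and 13.29 for Tnaive and 13.09, 13.08 and 13.10 for Teff. Its Timer-positive libraries overlapped, with a difference of 0.07 ± 0.03 (SE, adjusted p = 0.0638), which passed the test with a replicate block (adjusted p = 0.0355) and without PAt replicate 3 (0.08, adjusted p = 0.0269). The log ratio of Psme2 to Psme1 lay between -0.044 and 0.108 in persistent libraries and between -0.505 and -0.366 in PAt and Arrested, a shift of 0.48 that was chosen after the values were seen and not tested. Psme4, a large nuclear activator, rose by 0.39, Psme3, which also binds the core in the nucleus, by 0.35, and the inhibitor Psmf1 by 0.13 (adjusted p = 0.016).

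The 2 genes matched by name only moved in opposite directions. Psmc3ip gave 8.04, 7.83 and 7.84 for Pers1, 7.97, 7.62 and 7.85 for Pers2, 7.10, 6.999 and 6.56 for PAt and 7.02, 6.99 and 6.99 for Arrested. In Timer-negative cells it was at 7.04, 6.97 and 7.25 for Tnaive and 7.21, 7.08 and 7.35 for Teff. It rose by 0.91 ± 0.09 (SE, adjusted p = 2.48e-08) without overlap. Psme2b gave 8.99, 9.21 and 8.82 for Pers1, 9.09, 8.98 and 9.08 for Pers2, 9.53, 9.54 and 9.39 for PAt and 11.83, 9.55 and 9.71 for Arrested. Tnaive and Teff libraries gave 9.34, 9.42 and 9.37 for Tnaive and 9.06, 9.16 and 8.87 for Teff. Arrested replicate 1 stood more than 2 log2 units above the other 17 libraries, the fold change was -0.90 ± 0.24 (SE, adjusted p = 0.00236), and without that library it was -0.53 (adjusted p = 2.24e-06).

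Teff cells are Timer-negative T cells of activated phenotype, and their comparison with Tnaive asked how far the same genes differ between activated and naive cells. Here 22 of 45 genes were higher and 4 lower, against 31.3% and 27.7% of all tested genes, with a median of 0.16. Past a log2 fold change of 1 there were 0, where 8.88% of all genes were higher and 2.28% lower. Core genes made up most of it: 13 of 14 rose, led by Psma1 (0.57), Psma4 (0.52) and Psmb1 (0.36), and Psmb6 was not called (0.06). Of cap genes 9 of 17 rose, with Psmd8 (0.42), Psmd13 (0.42), Psmd2 (0.33) and Psmc2 (0.31) in front, and 8 were not called, among them Psmc6 (-0.16), Psmd7 (-0.00) and Psmd14 (0.06). The 4 lower genes were the chaperones Psmg4 (-0.47), Psmg2 (-0.28) and Psmg1 (-0.28) and the activator Psme1 (-0.15). With every library centred on its median, 11 genes were higher and 6 lower, and Psmb6, Psmc4 and Psme2, none of them called, turned from 0.06, 0.05 and 0.02 to -0.027, -0.033 and -0.059. Division genes were higher in 4 of 5 (summed level 14.01 to 14.10 in Teff, 12.53 to 12.67 in Tnaive), beside the markers of other cell types given above, and the part of either was not tested.

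In most genes the shift from PAt and Arrested to the persistent populations was more positive than that from Tnaive to Teff. The difference of the shifts, which share no library, was called higher in 35 of 45 genes and lower in 0. Of all tested genes 23.2% were called higher and 25.5% lower. At an unadjusted p under 0.05 the counts were 37 and 0. Shares of all tested genes at an unadjusted p are not given here or below, so such counts have no background. Core genes were called in 12 of 14 and cap genes in 15 of 17, with medians of 0.28 and 0.37. Psmg4, Psmg2, Psmg1 and Psme1 were called with falls from Tnaive to Teff (-0.47, -0.28, -0.28 and -0.15). Their shifts to the persistent populations were smaller in size (0.02, -0.05, 0.21 and 0.07). Markers of other cell types moved with this difference: 5 of 5 B cell markers were lower (median -3.14), as were 5 of 6 dendritic (-2.58), 3 of 4 tested macrophage or monocyte (-2.75, and 1 higher), 3 of 3 NK (-1.40) and 2 of 2 CD8 markers (-2.23), and their part in it was not tested. The largest difference was that of Psmc3ip (0.79 ± 0.16, SE). Psma5 followed, an alpha-ring gene. The Timer-positive libraries gave 11.61, 11.63 and 11.70 for Pers1, 11.61, 11.50 and 11.64 for Pers2, 10.91, 10.78 and 10.84 for PAt and 10.78, 10.74 and 10.90 for Arrested. Outside the Timer-positive cells the values were 10.97, 10.92 and 10.85 for Tnaive and 11.10, 11.10 and 11.06 for Teff. PAt and Arrested overlapped Tnaive and the persistent libraries lay above all others, and its shifts were 0.79 and 0.17 and differed by 0.61 ± 0.07 (SE, adjusted p = 2.92e-07). Psmb7 was next, with shifts of 0.75 and 0.18 that differed by 0.57 ± 0.06 (SE, adjusted p = 1.55e-07). Genes with a large shift in both had a smaller difference, such as Psma1 (0.23 ± 0.08, SE, adjusted p = 0.0164), and Psmb1 and Psmd4 had none that was called (0.07 and -0.06).

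**Figure D4:**
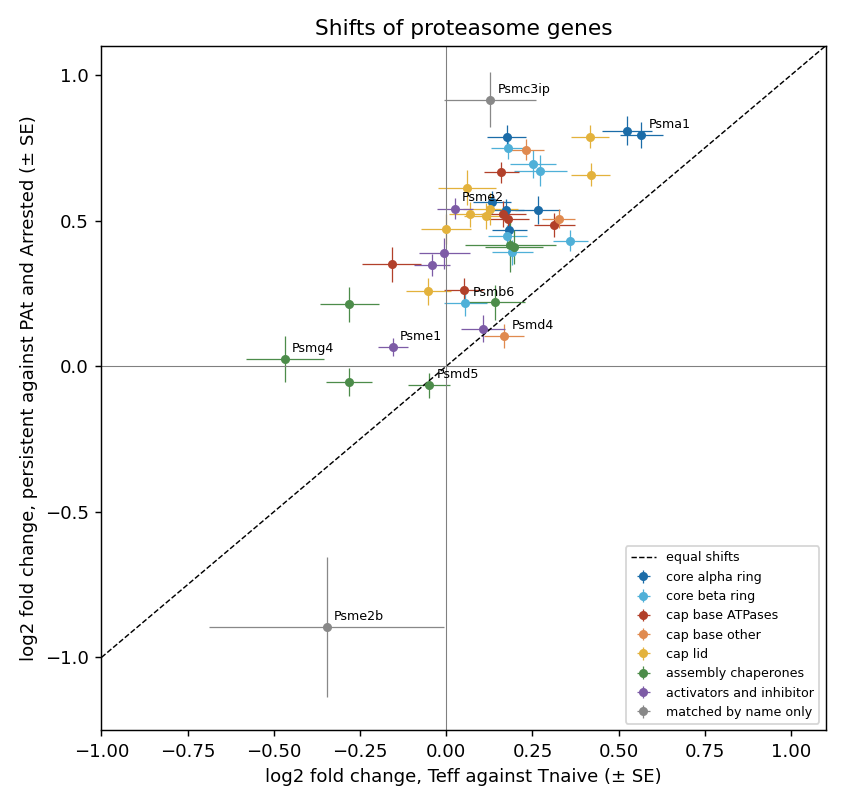
Each point is a gene, coloured by role, at its log2 fold change from Tnaive to Teff (horizontal) and from PAt and Arrested to the persistent populations (vertical), with bars of ± 1 SE. The dashed line marks equal shifts, and the core and cap points lie above it except Psmd4, at 0.17 and 0.10.

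Persistent cells also exceeded Teff, which shares its libraries with the comparisons above and with the next. Of 45 genes 38 were higher and 0 lower, with a median of 0.35, where 29.8% of all genes were higher and 28.9% lower. At an unadjusted p under 0.05, for which no background is given, the counts were also 38 and 0. All 14 core genes and 16 of 17 cap genes were higher, led by Psmd1 (0.63), Psmb5 (0.60) and Psmd13 (0.56), and Psmd4 was at 0.00 (adjusted p = 0.975). Outside the core and cap, Psmc3ip (0.65) and Psme2 (0.57) were higher. Psmb8, Psmb9 and Psmb10 were higher as well, by 0.20, 0.13 and 0.20. With centred libraries 1 gene was lower. The PAt and Arrested populations lay below Teff in 17 genes, all of them core or cap, and above it in 3 (background 27.9% and 24.8%), with Psma1 at -0.44, Psma4 at -0.40, and Psme1 higher by 0.21. The B cell, dendritic, macrophage or monocyte, NK cell and CD8 markers of the Teff libraries enter both comparisons. Division genes differed as well, with 5 of 5 higher in the persistent populations than in Teff (median 1.82). Their summed level was 15.62 to 15.88 in persistent libraries, 14.01 to 14.10 in Teff and 13.31 to 13.55 in PAt and Arrested. The part of these markers and of the division genes was not tested.

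Against Tnaive, PAt and Arrested had few called genes. At this scaling 10 of 45 were higher and 3 lower, where 26.9% and 23.8% of all genes were, and the median was 0.06. With libraries centred on their median 0 were higher and 11 lower, so the direction depended on the scaling. Psmg1 was lowest at -0.43 ± 0.07 (SE, adjusted p = 5.53e-05), and Psmb5 and Psmd13 were highest among the called genes at 0.20 and 0.19. The count of higher genes was 2 without Tnaive replicate 2, 5 without Tnaive replicate 3 and 6 without PAt replicate 1, and that of lower genes 1 without Tnaive replicate 3.

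Within the persistent pair, Pers2 had slightly lower levels than Pers1. By limma 6 of 45 genes were lower and 0 higher (background 4.56% and 6.02%). At an unadjusted p under 0.05, for which no background is given, 23 were lower and 0 higher. All 31 core and cap genes had a fold change below 0, with a median of -0.15. The median was 0.0014 over all tested genes and -0.018 over those with a mean of at least 10. The share of all tested genes below 0 is not given here. The called genes were the ATPases Psmc1 (-0.24 ± 0.05, SE, adjusted p = 0.00354) and Psmc2 (-0.22), the lid subunits Psmd6 (-0.30), Psmd12 (-0.21) and Psmd13 (-0.18), and the core subunit Psmb7 (-0.20). Of markers of other cell types, 2 of 4 tested macrophage or monocyte markers (median -0.66, summed level 8.64 to 8.81 in Pers2 against 9.39 to 9.59 in Pers1) and 3 of 6 dendritic markers (median -0.39, 10.46 to 10.66 against 10.82 to 10.99) were lower in Pers2 too, while 0 B cell, CD8 and NK markers were called, and their part was not tested. With a replicate block 12 were lower, and the count fell to 3, 1 and 2 without Pers1 replicate 1, Pers1 replicate 3 and Pers2 replicate 2. Pomp, a maturation factor of the core, was lower in Pers2 by 0.23 (-0.23 ± 0.05, SE, adjusted p = 0.00463). Between Arrested and PAt, limma called 0 of 45 genes (1 higher and 1 lower at an unadjusted p under 0.05), where 2.07% of all genes were higher and 2.97% lower, and without Arrested replicate 2 or 3 it called 1 higher.

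Of the wider ubiquitin and proteasome list, 30 of 31 genes were found, and against PAt and Arrested the persistent libraries had 14 of them higher and 8 lower, with a median of 0.06, beside 35.9% and 35.1% of all tested genes, which is also the background of the smaller groups below. Pomp passed the fold threshold, at 1.00 ± 0.03 (SE, adjusted p = 5.07e-16). In Timer-positive cells the levels were 12.22, 12.23 and 12.28 for Pers1, 12.02, 11.96 and 12.07 for Pers2, 11.07, 11.11 and 11.13 for PAt and 11.23, 11.09 and 11.15 for Arrested. The Timer-negative libraries held 10.82, 10.87 and 10.84 for Tnaive and 11.62, 11.64 and 11.57 for Teff. The persistent libraries lay above all others with Teff next, and it was 0.76 higher in Teff than in Tnaive. Of 8 other subunits and bound factors 5 rose, among them the lid subunit Sem1 (0.65) and the chain-trimming enzymes Uchl5 (0.55) and Usp14 (0.49), while the ubiquitin receptor Adrm1 was at 0.02 (adjusted p = 0.74). Of 8 shuttles and unfoldase genes 4 rose, including Rad23b (0.73) and the unfoldase Vcp (0.61), and 3 fell, including Ubqln4 (-0.67). The ubiquitin-activating enzymes Uba1 (0.39) and Uba6 (0.40) rose, and the ubiquitin gene Rps27a fell (-0.29). Of the 4 genes tied to transcription of subunit genes, Nfe2l1, which raises subunit genes when the proteasome is blocked, was at -0.06 (adjusted p = 0.147), its processing enzyme Ngly1 rose by 0.32, its protease Ddi2 was at 0.08 (adjusted p = 0.394), and Nfe2l2, the antioxidant factor, fell by 0.73 (-0.73 ± 0.05, SE, adjusted p = 7.9e-11).

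Between libraries of 1 population, core and cap genes had a weak positive correlation at the median, with pairs of both signs. Over the 465 pairs of the 31 genes, the correlation of deviations from the population means across 18 libraries had a median of 0.27, from -0.86 to 0.91, and was above 0 in 329 pairs, while the median of these genes with all other tested genes was 0.0047. The points are libraries and share library preparation and depth, and the correlations are given as a description. No other set of genes was measured within itself, so the median of 0.27 has no matched background.

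Promoters were compared because these genes rose together. RefSeq (GRCm38.p6) gave a window of 250 bases before to 50 after the start for 38 of the 45 genes. CCGGAAG, the core letters bound by ETS factors, searched on both strands, stood in 15 of 38, or 39.5%, against 9.93% of 27025 genes and 25.1% of the 4630 genes with a window and a mean of at least 10. It stood in 9 of 14 cap genes and in 1 of 11 core genes, a count given without a test. The last 120 bases before the start are shown for 3 genes that hold the letters there and for 2 that do not, chosen so that no annotated exon of the gene lies in the stretch. Capitals mark the letters or their reverse complement. The stretches are chr16:20651532-20651651, plus strand (Psmd2), chr11:80428495-80428614, plus strand (Psmd11), chr16:95990961-95991080, minus strand (Psmg1), chr3:108256806-108256925, plus strand (Psma5) and chr2:61711574-61711693, plus strand (Psmd14), each printed 5′ to 3′ along its gene.
Psmd2: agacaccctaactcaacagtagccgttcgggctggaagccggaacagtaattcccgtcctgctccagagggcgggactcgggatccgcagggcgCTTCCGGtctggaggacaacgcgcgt
Psmd11: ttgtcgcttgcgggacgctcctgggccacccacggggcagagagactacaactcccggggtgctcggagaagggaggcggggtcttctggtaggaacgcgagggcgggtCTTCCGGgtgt
Psmg1: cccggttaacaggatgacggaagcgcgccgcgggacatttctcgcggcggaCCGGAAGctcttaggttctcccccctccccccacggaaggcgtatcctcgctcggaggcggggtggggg
Psma5: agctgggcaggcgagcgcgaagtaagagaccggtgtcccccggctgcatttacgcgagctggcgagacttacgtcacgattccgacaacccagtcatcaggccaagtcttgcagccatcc
Psmd14: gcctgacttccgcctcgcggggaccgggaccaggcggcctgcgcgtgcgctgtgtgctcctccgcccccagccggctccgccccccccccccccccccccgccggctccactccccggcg
The letters stand 26 bases before the start in Psmd2, 11 in Psmd11 and 69 in Psmg1, counted to their first base. Psmd2 and Psmd11, which have them, rose by 0.51 and 0.52 in the persistent populations, and Psma5 and Psmd14, which lack them, by 0.79 and 0.61. Over core and cap genes with a window, the median was 0.52 for the 10 with the letters and 0.56 for the others. A match is a description of letters, not of binding.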

How the data were processed

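RNA-seq was run on 3 libraries from each of 6 sorted populations. Per the labels and the study's methods, libraries were stranded mRNA and reads were paired-end of 100 bp, and the submitters' processing notes name CASAVA 1.8.2, FastQC 0.11.2, TopHat2 2.0.9, DESeq2 and mm10. What the authors deposited is 1 table of log2 values per gene and library, made from counts normalised and log-transformed by DESeq2. This transform shrinks differences of weakly read genes. Counts themselves were not used here, depth per library is therefore unknown, and the 3 replicates set the precision. The tests took the table unchanged and without a pseudocount in limma 3.58.1 (R 4.3.3). The 13190 genes with a mean of at least 3 entered a single fit of the 6 populations, leaving 12 residual degrees of freedom, with a variance trend and Benjamini-Hochberg adjustment over all of them. The script was tested on simulated data. Gene coordinates came from GENCODE vM21 (GRCm38), and figures from Python 3.11.15.

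The genes, role groups, lists and tests were chosen with earlier results of these data known. Values in every library were given for the highest and lowest fold change of each role group (all genes of groups of 3 or fewer), the 3 largest differences of shifts, and list genes past a log2 fold change of 1. Some genes of the wider list are counted but not reported here by name. Alternatives were a filter at 6 or none, no variance trend, centring on the median, quantile normalisation (added), fits of only the populations compared, a replicate block, and each library left out.

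The main fit had no replicate block, so the p-values reported here are from unpaired tests unless a block is named. The deposited description has all populations sorted from the same animals. For the replicate block, the replicate number was therefore taken to pair libraries, although neither source states that 1 number marks 1 pool. Deviations from population means correlated with a median of 0.166 over 45 pairs with the same number (from -0.206 to 0.436) and -0.064 over 90 pairs with different numbers. Deviations within a population cancel out, so the second value is tied to the first and is no separate contrast. P-values measure the spread between these pools.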

Additional observations from a re-analysis of the deposited data

Results flagged for a closer look

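A test of the difference between the shift to the persistent populations (from PAt and Arrested) and the shift to Teff (from Tnaive) was passed by 35 of the 45 genes. All had the more positive shift to the persistent populations, where 23.2% of all tested genes were called in that direction. In Psmg4, Psmg2, Psmg1 and Psme1 the shift to Teff was a fall (-0.47, -0.28, -0.28 and -0.15). It was larger in size than their shift to the persistent populations (0.02, -0.05, 0.21 and 0.07). In the same contrast B cell (5 of 5, median -3.14), dendritic (5 of 6, -2.58), macrophage or monocyte (3 of 4, -2.75), NK (3 of 3, -1.40) and CD8 markers (2 of 2, -2.23) were lower, and their part was not tested. Differences are in log2 units and come from the limma fit. In the alpha ring, the gate of the core, they were Psma5 0.61, Psma3 0.43, Psma2 0.36, Psma4 0.28, Psma7 0.28, Psma6 0.27 and Psma1 0.23. In the beta ring, with the cutting sites, they were Psmb7 0.57, Psmb2 0.44, Psmb5 0.40, Psmb4 0.27 and Psmb3 0.20, and Psmb6 passed with a replicate block only (0.16, adjusted p = 0.0439) or without Pers1 replicate 2 or Pers2 replicate 3 (0.19 each). Among the ATPases of the cap they were Psmc1 0.51, Psmc6 0.51, Psmc5 0.36, Psmc3 0.32 and Psmc4 0.21. The scaffolds gave Psmd1 0.51 and Psmd2 0.18, of which Psmd2 was not called under quantile normalisation (0.14, adjusted p = 0.0631) or without Teff replicate 1 (0.13). In the lid they were Psmd14 0.55, Psmd7 0.47, Psmd12 0.45, Psmd6 0.41, Psmd11 0.40, Psmd13 0.37, Psmd3 0.31 and Psmd8 0.24. The called assembly chaperones were Psmg1 0.49, Psmg4 0.49 and Psmg2 0.23, and Psmg3, at 0.23 and not called, passed under quantile normalisation (0.48, adjusted p = 0.0189). Activators gave Psme2 0.52, Psme3 0.39, Psme4 0.39 and Psme1 0.22, and the recombination factor Psmc3ip 0.79. No population had 4 or more libraries, so single libraries were not tested for standing apart.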

How the results depend on the processing

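Against PAt and Arrested the count of genes higher in persistent cells stayed between 38 and 41 under every alternative but the fold threshold, and with the shifts compared it stayed between 32 and 37. Requiring a log2 fold change over 1 as well left 0 genes in every comparison and direction. With libraries centred on their median, 3 genes were lower in the persistent populations against PAt and Arrested (3 also under quantile normalisation), 11 were higher in Teff against Tnaive, 1 was lower in the persistent populations against Teff, and 0 were higher and 11 lower in PAt and Arrested against Tnaive (quantile normalisation 5 lower, no variance trend 6 higher). Uncalled genes changed sign: with centred libraries Psmb6 (-0.027), Psmc4 (-0.033) and Psme2 (-0.059) in Teff against Tnaive and Psmd5 (0.0019) in the difference of shifts, and with quantile normalisation Psmg3 (-0.10) and Psmc3ip (-0.29) in Teff against Tnaive. Leaving out 1 library gave 2 to 10 higher and 1 to 3 lower genes in PAt and Arrested against Tnaive, 1 to 7 lower in Pers2 against Pers1 and 0 to 1 higher in Arrested against PAt, and from -0.098 to 0.0062 for Psmd3 in Teff against Tnaive and -0.063 to 0.014 for Psmd5 in the difference of shifts. Fitting only the 2 populations gave 10 lower genes in Pers2 against Pers1, and the replicate block 12. The block changed the call of no other named gene than Psme1 and Psmb6 in the 3 comparisons in which each was refitted. For values that moved or reversed without a construction that explains it, the cause was not tested. Depth is unknown, so a gene that was not called was not shown to be equal.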

Other observations

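Levels of different genes can be compared only per length. Per kb of exon, the log2 level of core and cap genes lay between 8.58 and 11.37 with a median of 10.33, that of activators and the inhibitor between 7.92 and 12.22, and that of assembly chaperones between 6.5 and 9.43 with a median of 8.80. Psme2 was highest at 12.22, followed by Psme1 at 12.14. These lengths count every annotated exon, retained introns included, so that genes with many annotated transcripts are set too low.

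The other promoter letters searched gave these shares. The core of the antioxidant response element, TGACNNNGC, stood in 6 of 38 promoters (15.8%), against 14.0% of all genes and 17.6% of genes with a mean of at least 10. CCAAT stood in 34.2%, against 41.1% and 42.1%, and the GC box GGGCGG in 57.9%, against 38.2% and 73.7%. In 10 genes the exons overlap another gene on the opposite strand and in 4 on the same strand. The longest overlap was 1849 bp, of the chaperone gene Psmd9 with the noncoding gene Gm26745. The 45 genes lay on 16 chromosomes, 10 of them on chromosome 11.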
